A study of Mus musculus with 11 samples.

Results

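The genes described here write, maintain and erase DNA methylation in mouse embryonic stem cells (ESCs). They were chosen by name as 9 symbols, the DNA methyltransferase genes Dnmt1, Dnmt3a and Dnmt3b, the cofactor genes Dnmt3l and Uhrf1, the dioxygenase genes Tet1, Tet2 and Tet3, and the glycosylase gene Tdg. Of these, 8 are measured among 19935 genes in all. The 4 array features that match Tdg are annotated to the pseudogene Tdg-ps2 as well, so no value is given for Tdg. Expression was measured on 11 one-colour Affymetrix arrays of total RNA. The groups were cells labelled Bmpr1a-/- after 3 days in N2B27 (n = 3), control E14 cells after 3 days in N2B27 (n = 3), Bmpr1a-/- cells in ESC medium (n = 2, replicates 2 and 3) and control E14 cells in ESC medium (n = 3). ESCs leave pluripotency in N2B27, which holds no serum, and Bmpr1a encodes a receptor through which cells sense bone morphogenetic proteins. The labels name the mutant lines C1-6, Fr124 and Fr88 without giving the line of any single array. Separate cultures are not stated for replicates, so the p-values measure the spread between arrays, which may be technical.

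Methylation of cytosine in CG dinucleotides is set by Dnmt3a and Dnmt3b, the de novo enzymes, which in ESCs work with Dnmt3l, a relative without catalytic activity. Dnmt1 copies the pattern after replication, brought to half-methylated DNA by Uhrf1. The Tet enzymes oxidise methylated cytosine and Tdg removes the oxidised bases. ESCs in culture express Tet1 and Tet2 together with Dnmt3l, and Dnmt3b is a marker of the epiblast that forms as naive pluripotency is lost.

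Values are log2 and each gene is centred on a baseline of its own, so arrays can be compared for 1 gene but the levels of different genes cannot. Bmpr1a read 0.15, -0.14 and -0.05 in Bmpr1a-/- cells against 0.61, 0.68 and 0.76 in control cells in N2B27, and -0.03 and 0.00 in Bmpr1a-/- cells against 0.37, 0.16 and 0.25 in control cells in ESC medium. Every Bmpr1a-/- array lay below every control array of its medium. The log2 difference was -0.70 (limma, adjusted p = 0.00211) in N2B27 and -0.27 (adjusted p = 0.145) in ESC medium. Where the deletion lies in Bmpr1a is not stated, so these values check the labels only in part. Replicate 2 of Bmpr1a-/- cells in N2B27 deviated most from its group, by a root mean square of 0.185 over all genes, with the other arrays between 0.0774 and 0.155. The lowest value belongs to both Bmpr1a-/- arrays in ESC medium. Deviations from a mean of 2 arrays are equal in size, so it cannot be ranked with those of groups of 3. The pluripotency markers Pou5f1, Nanog, Sox2, Zfp42, Esrrb, Utf1, Tdgf1 and Lin28a had a mean value per array of -0.49 to -0.16 in Bmpr1a-/- and -1.10 to -0.69 in control cells in N2B27, against 1.15 to 1.16 in Bmpr1a-/- and 0.91 to 1.10 in control cells in ESC medium. Control and mutant arrays differ in cell line as well as in Bmpr1a, so genotype and line cannot be told apart in any comparison between them.

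More of these genes were called between media than between genotypes, as was so over all genes. Between genotypes, 5.74% of all genes were called in N2B27 and 6.14% in ESC medium. In control cells, Dnmt3l, Tet1 and Tet2 fell and Dnmt3b and Tet3 rose in N2B27, and the same 5 genes were called in the same directions in Bmpr1a-/- cells. Calls rest on an adjusted p under 0.05, with the Benjamini-Hochberg adjustment taken over all genes. In Bmpr1a-/- cells 3 of 8 were lower, where 10.3% of all genes were, and 2 of 8 higher, where 14.9% of all genes were. In control cells 3 of 8 were lower, where 13.3% of all genes were, and 2 of 8 higher, where 12.8% of all genes were. In either direction, 25.2% of all genes were called in Bmpr1a-/- and 26.1% in control cells. The median difference of the 8 genes was -0.32 in Bmpr1a-/- and -0.26 in control cells, beside 0.01 and 0.02 over all genes. The arrays of the 2 media did not overlap for 7 of the 8 genes in Bmpr1a-/- cells, as for 43.5% of all genes, and for 6 of 8 in control cells, as for 43.9%.

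**Figure D1:**
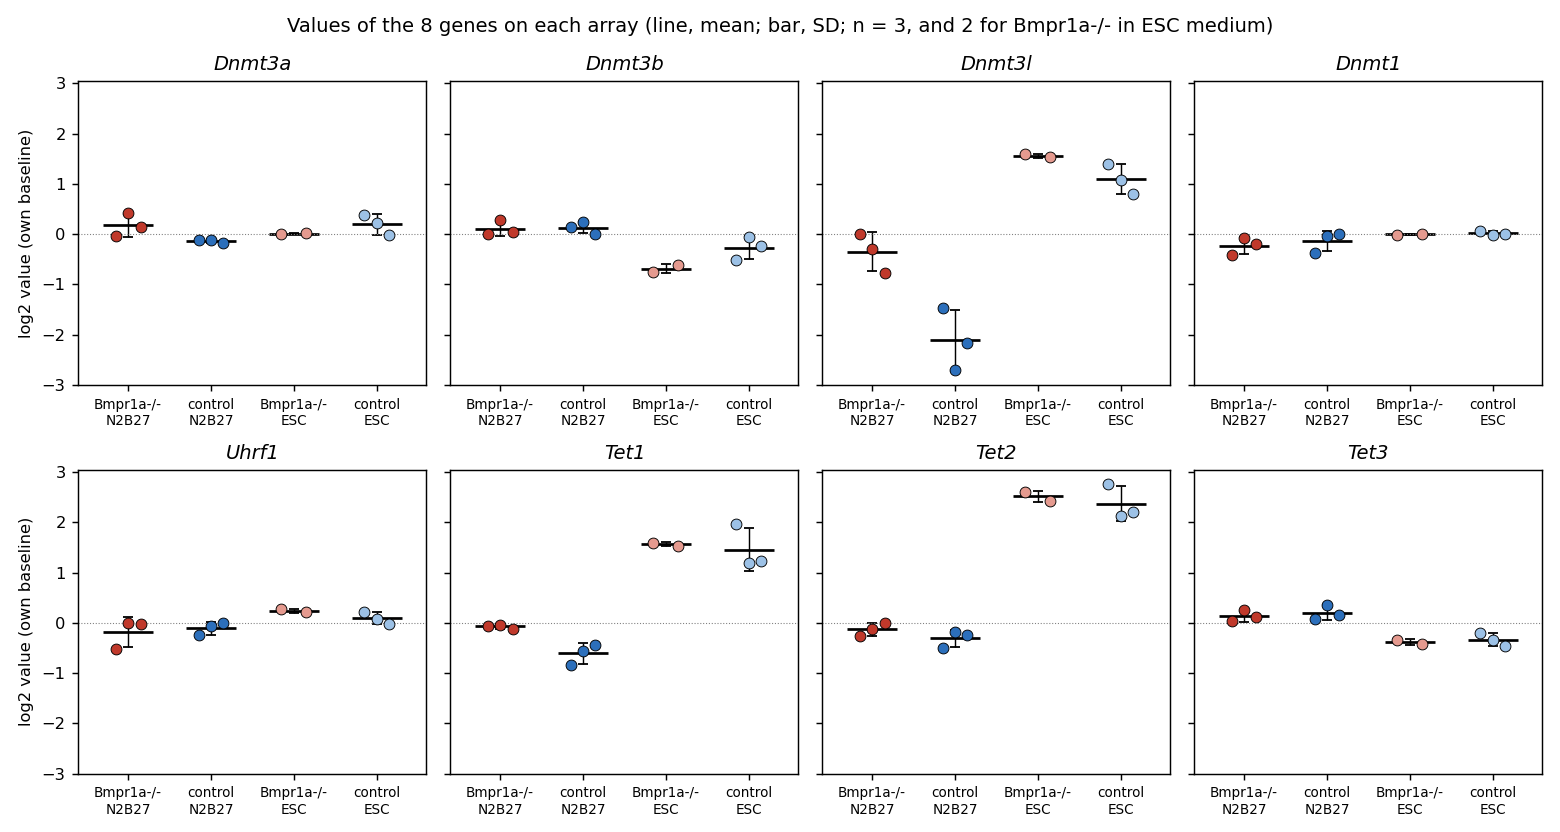
Log2 value of each of the 8 genes on each array, relative to the gene's own baseline, with points for arrays, lines for group means and bars for the SD. Dnmt3l, Tet1 and Tet2 are lower on every N2B27 array than on every ESC medium array, and Dnmt3l in N2B27 is higher on the 3 Bmpr1a-/- arrays (-0.77 to 0.00) than on the 3 control arrays (-2.69 to -1.48).

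Among the erasers, Tet2 changed most. It read -0.27, -0.12 and 0.00 in Bmpr1a-/- cells in N2B27, against 2.60 and 2.43 in Bmpr1a-/- cells in ESC medium. In control cells it read -0.50, -0.19 and -0.25 in N2B27, against 2.77, 2.13 and 2.21 in ESC medium. The media were thus more than 2 log2 units apart on every array. Tet2 fell by 2.64 (SE 0.18, adjusted p = 1.36e-05) in Bmpr1a-/- cells and fell by 2.68 (SE 0.16, adjusted p = 8.76e-06) in control cells, which is 6.25-fold and 6.41-fold lower. Only 42 genes in Bmpr1a-/- cells and 28 in control cells of the 19935 had a larger absolute difference between media.

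Tet1, the other dioxygenase gene typical of ESCs, fell less. It read -0.06, -0.03 and -0.12 in Bmpr1a-/- cells in N2B27, against 1.59 and 1.53 in Bmpr1a-/- cells in ESC medium. Control cells had -0.84, -0.55 and -0.43 in N2B27, against 1.96, 1.19 and 1.22 in ESC medium. The groups of the 2 media did not overlap in either genotype. Tet1 fell by 1.63 (SE 0.21, adjusted p = 0.000339) in Bmpr1a-/- cells, 3.10-fold lower, and fell by 2.07 (SE 0.18, adjusted p = 6.47e-05) in control cells, 4.19-fold lower. Tet1 is read by 3 array features, which fell alike, with differences of -1.71 to -1.55 in Bmpr1a-/- and -2.16 to -2.01 in control cells.

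Tet3, the third member of the family, went the other way. It read 0.04, 0.25 and 0.11 in Bmpr1a-/- cells in N2B27, against -0.34 and -0.43 in Bmpr1a-/- cells in ESC medium. Control cells had 0.08, 0.36 and 0.17 in N2B27, against -0.19, -0.35 and -0.46 in ESC medium. All N2B27 arrays were above all ESC medium arrays. Tet3 rose by 0.52 (SE 0.11, adjusted p = 0.00506) in Bmpr1a-/- and by 0.53 (SE 0.09, adjusted p = 0.00249) in control cells, 1.43-fold and 1.45-fold. In Bmpr1a-/- cells the call was not made after quantile normalization of the arrays (0.41, adjusted p = 0.0515). Its 2 array features both rose, by 0.61 and 0.43 in Bmpr1a-/- and by 0.68 and 0.38 in control cells. In size these changes were ordinary, since 15.9% of all genes in Bmpr1a-/- and 13.1% in control cells had a larger one.

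Among the writers, the cofactor gene Dnmt3l fell most. It read 0.00, -0.29 and -0.77 in Bmpr1a-/- cells in N2B27, against 1.59 and 1.53 in Bmpr1a-/- cells in ESC medium. Control cells had -1.48, -2.69 and -2.17 in N2B27, against 1.39, 1.08 and 0.80 in ESC medium. No array of one medium reached the range of the other. Dnmt3l fell by 1.91 (SE 0.32, adjusted p = 0.00178) in Bmpr1a-/- cells, 3.76-fold lower, and fell by 3.21 (SE 0.29, adjusted p = 6.73e-05) in control cells, 9.23-fold lower. In control cells 12 genes had a larger absolute difference, and in Bmpr1a-/- cells 169 did.

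Dnmt3b, the de novo enzyme gene that marks the epiblast, rose as its cofactor gene fell. It read 0.00, 0.28 and 0.05 in Bmpr1a-/- cells in N2B27, against -0.75 and -0.61 in Bmpr1a-/- cells in ESC medium. Control cells had 0.14, 0.23 and 0.01 in N2B27, against -0.52, -0.06 and -0.23 in ESC medium. The N2B27 arrays were higher in each genotype, narrowly so in control cells. Dnmt3b rose by 0.79 (SE 0.13, adjusted p = 0.0018) in Bmpr1a-/- cells, 1.73-fold, and by 0.40 (SE 0.12, adjusted p = 0.0334) in control cells, 1.32-fold. In control cells the call was lost with only the 2 groups in the fit (adjusted p = 0.0511) and without control replicate 1 (0.11) or 3 (0.0661) in ESC medium or control replicate 1 (0.0862) or 2 (0.113) in N2B27.

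Dnmt3a, Dnmt1 and Uhrf1 were not called between media in either genotype. Dnmt3a, the other de novo enzyme gene, read -0.04, 0.42 and 0.14 in Bmpr1a-/- cells in N2B27 against 0.00 and 0.02 in ESC medium, and -0.12, -0.11 and -0.17 in control cells in N2B27 against 0.38, 0.22 and -0.02 in ESC medium. The difference was 0.16 (95% interval -0.14 to 0.47, adjusted p = 0.483) in Bmpr1a-/- and -0.33 (-0.60 to -0.06, adjusted p = 0.078) in control cells. In control cells the arrays did not overlap between media, and the call was made with array weights (adjusted p = 0.0149), without control replicate 3 in ESC medium (0.0294) and without Bmpr1a-/- replicate 1 (0.0487) or 2 (0.0283) in N2B27. Dnmt1, the maintenance enzyme gene, stayed between -0.42 and 0.06 on all 11 arrays. Its difference was -0.23 (-0.49 to 0.04) in Bmpr1a-/- and -0.15 (-0.39 to 0.09) in control cells, so a fall beyond 0.49 is outside both intervals. Uhrf1, which brings Dnmt1 to DNA, read -0.52, 0.00 and -0.02 in Bmpr1a-/- cells in N2B27 against 0.27 and 0.21 in ESC medium. The difference was -0.42 (-0.75 to -0.09, adjusted p = 0.0665). It was called with the arrays centred on their medians (adjusted p = 0.0473), with array weights (0.0377) and without Bmpr1a-/- replicate 2 in N2B27 (0.0318). In control cells Uhrf1 read -0.25, -0.07 and -0.01 in N2B27 against 0.22, 0.09 and -0.03 in ESC medium, which overlap, and differed by -0.20 (-0.50 to 0.10, adjusted p = 0.347).

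**Figure D2:**
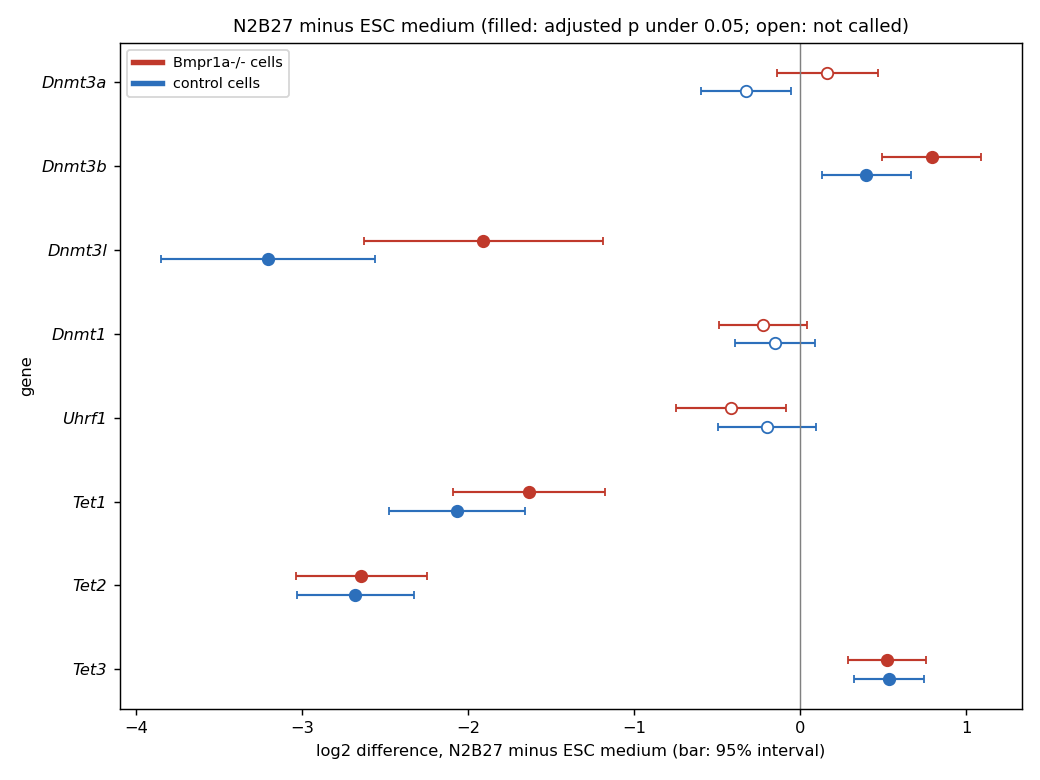
Log2 difference, N2B27 minus ESC medium, of each gene in Bmpr1a-/- and in control cells, with 95% intervals from limma. Filled points, called at an adjusted p under 0.05, are Dnmt3b, Dnmt3l, Tet1, Tet2 and Tet3 in both genotypes.

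The promoters of the 5 genes called between media are shown because they differ widely in the substrate of these enzymes, the CG dinucleotide. Each is a window of 300 bases, from 250 before to 50 after an annotated start, taken from RefSeq on GRCm38.p6 and written 5′ to 3′ on the gene's own strand, with every CG in capitals. All 9 genes matched the promoter table. Dnmt3l has 3 annotated starts, of which the one farthest upstream is printed, and the arrays do not tell which start was used.
Dnmt3l promoter, chr10:78042037-78042336, plus strand: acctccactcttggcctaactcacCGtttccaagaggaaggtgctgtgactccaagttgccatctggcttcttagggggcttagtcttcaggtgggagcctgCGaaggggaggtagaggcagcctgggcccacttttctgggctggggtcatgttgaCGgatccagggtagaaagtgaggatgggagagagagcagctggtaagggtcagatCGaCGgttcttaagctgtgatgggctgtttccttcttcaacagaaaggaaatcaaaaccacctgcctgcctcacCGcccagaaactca
Tet1 promoter, chr10:62887275-62887574, minus strand: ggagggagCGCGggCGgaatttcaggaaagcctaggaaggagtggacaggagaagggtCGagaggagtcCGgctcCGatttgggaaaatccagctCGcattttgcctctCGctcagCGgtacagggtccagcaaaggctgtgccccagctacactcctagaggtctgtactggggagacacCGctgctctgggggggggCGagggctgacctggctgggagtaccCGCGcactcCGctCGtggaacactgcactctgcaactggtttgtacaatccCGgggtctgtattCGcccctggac
Tet2 promoter, chr3:133544341-133544640, minus strand: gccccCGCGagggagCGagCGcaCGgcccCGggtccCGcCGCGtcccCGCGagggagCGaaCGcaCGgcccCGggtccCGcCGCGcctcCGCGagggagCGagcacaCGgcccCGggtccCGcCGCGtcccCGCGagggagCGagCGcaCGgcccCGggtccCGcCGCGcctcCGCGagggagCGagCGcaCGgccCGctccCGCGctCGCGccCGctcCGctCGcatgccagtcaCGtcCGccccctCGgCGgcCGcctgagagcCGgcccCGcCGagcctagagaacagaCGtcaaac
Dnmt3b promoter, chr2:153649199-153649498, plus strand: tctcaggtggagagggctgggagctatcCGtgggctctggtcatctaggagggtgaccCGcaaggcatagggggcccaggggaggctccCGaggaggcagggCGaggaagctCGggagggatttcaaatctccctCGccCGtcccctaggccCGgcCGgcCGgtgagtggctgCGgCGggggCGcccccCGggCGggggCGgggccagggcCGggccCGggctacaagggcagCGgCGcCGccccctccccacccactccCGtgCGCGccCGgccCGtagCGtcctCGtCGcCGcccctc
Tet3 promoter, chr6:83441629-83441928, minus strand: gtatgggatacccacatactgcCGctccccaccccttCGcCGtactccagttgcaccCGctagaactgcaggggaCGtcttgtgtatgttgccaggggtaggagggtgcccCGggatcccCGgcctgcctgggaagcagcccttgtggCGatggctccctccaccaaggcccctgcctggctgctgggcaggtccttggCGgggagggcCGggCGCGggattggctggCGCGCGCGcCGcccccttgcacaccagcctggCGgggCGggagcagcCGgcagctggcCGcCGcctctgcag

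Tet2 and Dnmt3l, the genes with the largest falls, stood far apart in CG content. The Tet2 window holds 57 CG, a number reached by 0.152% of 32851 mouse promoter windows of this length, and the Dnmt3l windows hold 6, 4 and 3, against a median of 7. Tet1 holds 17, Tet3 22 and Dnmt3b 30. Of the genes not called, Dnmt3a holds 46, 47 and 18 and Dnmt1 2, 12 and 33 at its 3 starts, and Uhrf1 12 and 33 at its 2 starts. Motifs were searched on both strands. The E2F forms TTTGGCGC and TTTCGCGC, held by 0.514% and 0.323% of windows, lay in the window of the Dnmt1 start farthest downstream, each 1 time, and the second form also in that of the Uhrf1 start farthest downstream. Neither was found in the 5 windows printed, nor were the octamer ATTTGCAT (1.74% of windows) or the Esrrb site TCAAGGTCA (0.423%) found in any window of the 9 genes. The GC box GGGCGG, present in 35.7% of windows, was found in all 5 windows printed. These counts describe letters and not binding.

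Between genotypes in N2B27, Dnmt3l was the 1 of 8 genes called, and it was higher in Bmpr1a-/- cells. Of all genes, 4.1% were called higher and 1.64% lower, 5.74% in either direction. The 3 Bmpr1a-/- arrays, at 0.00, -0.29 and -0.77, lay above the 3 control arrays, at -1.48, -2.69 and -2.17. The difference was 1.76 (SE 0.29, adjusted p = 0.00795), or 3.39-fold, and 17 of 19935 genes had a larger one. It was called under every alternative run, those that leave out 1 array included. Of the 8 pluripotency markers, 3, Esrrb (1.30), Pou5f1 and Zfp42 (1.78, on chromosome 8), were called higher in Bmpr1a-/- cells in N2B27 and none lower. The others were not called, with Tdgf1 (1.14), Sox2 (0.15) and Utf1 (0.02) higher in value and Nanog (-0.25) and Lin28a (-0.14) lower. The Pou5f1 call (0.48, adjusted p = 0.0266) was lost without control replicate 1 (0.0721) or 3 (0.0634) in N2B27 and with only the 2 groups in the fit (0.108). Of the markers of other cells, 2 of 7 trophoblast markers, Krt8 (0.58) and Tfap2c (0.98), and 1 of 7 neural progenitor markers, Nes (1.27), were called higher there. Called lower were 1 of 9 fibroblast markers, Col1a2 (-0.58), and 1 of 7 endoderm markers, Dab2 (-0.51). Each list held genes of both directions. The list medians were 0.19 for trophoblast, 0.01 for neural progenitor, -0.11 for fibroblast and -0.18 for endoderm markers, beside -0.001 over all genes. The calls of Nes, Col1a2 and Dab2 were each lost without control replicate 1 (0.0892, 0.097 and 0.121), 2 (0.066, 0.0911 and 0.0633) or 3 (0.108, 0.141 and 0.148) in N2B27, among other arrays, and that of Krt8 with only the 2 groups in the fit (0.0581). The part of these markers in the Dnmt3l difference was not tested.

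Tet1 and Dnmt3a were also above control on all 3 Bmpr1a-/- arrays in N2B27 without being called. With Dnmt3l they make 3 of 8 genes whose groups did not overlap, as 20.2% of all genes did. Tet1 differed by 0.54 (95% interval 0.13 to 0.95, adjusted p = 0.131) and was called after quantile normalization (0.52, adjusted p = 0.02) and without control replicate 1 in ESC medium (adjusted p = 0.0142), an array that enters this comparison through the shared spread alone. Dnmt3a differed by 0.31 (0.04 to 0.58, adjusted p = 0.195). The other 5 genes overlapped between genotypes. Tet2 differed by 0.18 (-0.17 to 0.53), Tet3 by -0.07 (-0.28 to 0.14), Dnmt3b by -0.02 (-0.29 to 0.25), Dnmt1 by -0.10 (-0.33 to 0.14) and Uhrf1 by -0.07 (-0.37 to 0.22), with adjusted p from 0.642 to 0.967.

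In ESC medium limma called 0 of 8 genes between genotypes, with 1 at an unadjusted p under 0.05, while 6.14% of all genes were called, 3.09% higher and 3.05% lower. Higher genes made up 50.2% of these calls, and 66.4% after quantile normalization. That 1 gene was Dnmt3b, at -0.75 and -0.61 in Bmpr1a-/- cells against -0.52, -0.06 and -0.23 in control cells, with a difference of -0.41 (95% interval -0.71 to -0.12, adjusted p = 0.116). It was called with array weights (-0.52, adjusted p = 0.00907) and without control replicate 1 (-0.54, adjusted p = 0.0251). Dnmt3l was the other gene whose groups did not overlap, which 39.4% of all genes showed, at 1.59 and 1.53 in Bmpr1a-/- cells against 1.39, 1.08 and 0.80 in control cells. It differed by 0.46 (-0.25 to 1.18, adjusted p = 0.561). Tet1 differed by 0.10 (-0.36 to 0.56), Tet2 by 0.14 (-0.25 to 0.54) and Tet3 by -0.05 (-0.29 to 0.18). These 3 and Dnmt3l turned direction after quantile normalization, with Tet2 then called lower (-0.75, adjusted p = 0.00623). That step was run on RMA values already centred on a baseline per gene. It makes the spread of the centred values equal on all arrays, which can itself move large values. Its part in these changes was not tested. Dnmt3a, Dnmt1 and Uhrf1 differed by -0.18, -0.02 and 0.15 (adjusted p from 0.605 to 0.97).

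**Figure D3:**
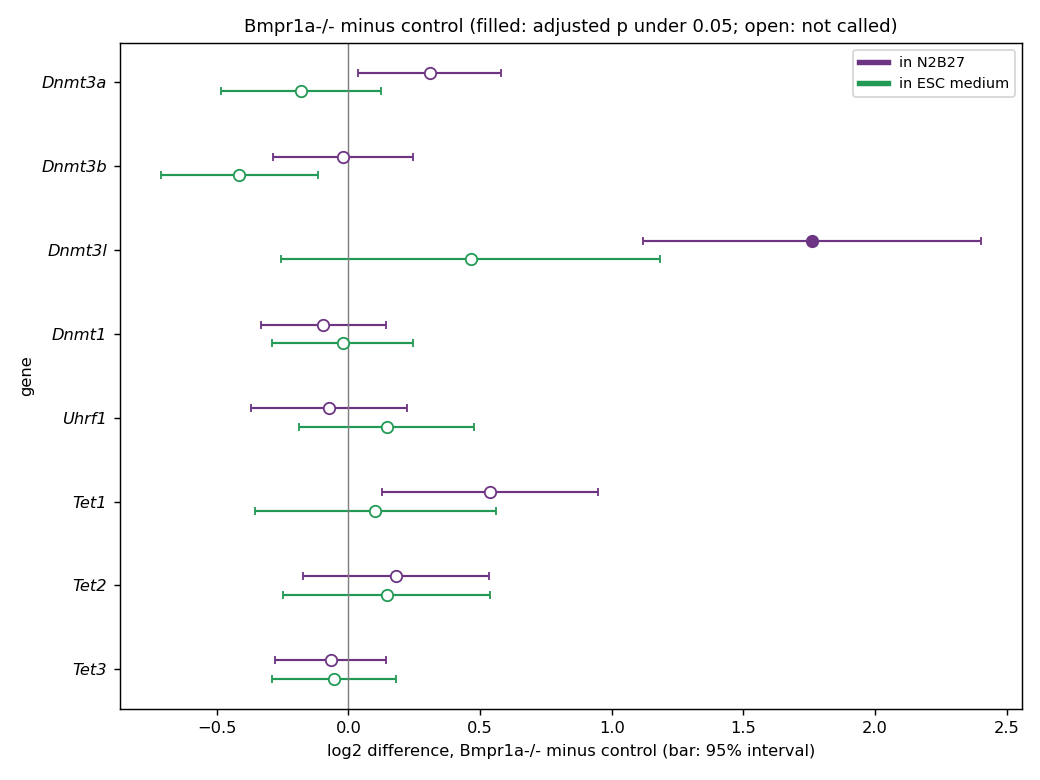
Log2 difference, Bmpr1a-/- minus control, of each gene in N2B27 and in ESC medium, with 95% intervals from limma. The single filled point, called at an adjusted p under 0.05, is Dnmt3l in N2B27 at 1.76.

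Whether the genotype difference itself depends on the medium was tested by the interaction, that is, the N2B27 difference minus the one in ESC medium. None of the 8 genes was called by limma, 2 had an unadjusted p under 0.05, and 2.12% of all genes were called, 1.57% higher and 0.552% lower. Those 2 were Dnmt3l, at 1.30 (95% interval 0.33 to 2.26, adjusted p = 0.196), and Dnmt3a, at 0.49 (0.08 to 0.90, adjusted p = 0.251). The fall of Dnmt3l in N2B27 was therefore smaller in Bmpr1a-/- cells in value, while a difference between genotypes in that fall was not shown at this threshold. For Tet2 and Tet3 the interaction was 0.04 (-0.49 to 0.56) and -0.01 (-0.33 to 0.30). After quantile normalization, with the limit of that step given above, Tet1 (0.89, adjusted p = 0.0358) and Tet2 (0.88, adjusted p = 0.0199) were called.

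The genes most like each in pattern were found by the root mean square difference over the 11 arrays after centring, a description that uses all groups. Dnmt3l lay nearest to Lncenc1, a noncoding RNA gene of naive ESCs, at 0.218, and to Fbxo15, an F-box gene of ESCs, at 0.280. Lncenc1 read 0.00, -0.72 and -0.50 in Bmpr1a-/- cells against -1.17, -2.53 and -2.17 in control cells in N2B27. Tet1 lay nearest to Nr5a2, a nuclear receptor gene of pluripotent cells, at 0.160, and to the nucleoside transporter gene Slc29a1 at 0.178. Tet2 lay nearest to Lrrc2 at 0.209 and to Alpl, the alkaline phosphatase gene long used to stain ESCs, at 0.234. For the genes not called between media, the nearest were genes of varied kinds. They were Tars2 and the replication helicase gene Mcm2 for Uhrf1, each at 0.0803, and the mismatch repair gene Pms2 (0.0556) and Atp5o (0.0599) for Dnmt1. For Dnmt3a they were Sys1 (0.0542) and Tmbim4 (0.0616). Among the 8, the smallest differences were between Dnmt1 and Uhrf1, at 0.113, and between Dnmt3b and Tet3, at 0.202. The measure is not scaled, so genes that change little lie close together whatever their pattern. The root mean square of a gene's own centred values was 0.153 for Dnmt1, 0.216 for Uhrf1, 0.337 for Dnmt3b and 0.280 for Tet3. It was 0.965 for Tet1, 1.34 for Tet2 and 1.46 for Dnmt3l.

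Genes that work with these enzymes were read in 6 lists, and the medians below stand beside those over all genes, 0.01 in Bmpr1a-/- and 0.02 in control cells between media. Of 19 maintenance and targeting partners, 9 were lower and 2 higher in N2B27 in Bmpr1a-/- cells and 11 lower and 2 higher in control cells, with medians of -0.22 and -0.40. Over all genes, 10.3% were lower and 14.9% higher in Bmpr1a-/- cells, and 13.3% lower and 12.8% higher in control cells. The other between-media counts below are to be read against these shares too. For the genotype counts below, 4.1% of all genes were called higher and 1.64% lower in N2B27, and 3.09% higher and 3.05% lower in ESC medium. Zfp57, which keeps imprints methylated, fell by 1.74 (adjusted p = 0.00029) in Bmpr1a-/- and fell by 1.79 (adjusted p = 0.000158) in control cells. Prdm14, a repressor of the de novo methylation genes in naive ESCs, differed by -2.22 in Bmpr1a-/- and -1.29 in control cells, and Dppa3, which shields the maternal genome from Tet3, by -1.15 and -0.92. Uhrf2, a relative of Uhrf1, rose by 0.64 (adjusted p = 0.0221) in Bmpr1a-/- and by 0.83 (adjusted p = 0.00345) in control cells. In Bmpr1a-/- cells its call was lost without replicate 2 (0.179) or 3 (0.0521) in ESC medium, without replicate 1 (0.0639) or 3 (0.0717) in N2B27, after quantile normalization (0.0528) and with only the 2 groups in the fit (0.0903). Between genotypes, Prdm14 was higher in Bmpr1a-/- cells in ESC medium by 1.06 (adjusted p = 0.00378), a call lost without Bmpr1a-/- replicate 2 (0.0572) and after quantile normalization (0.311). Dppa3 was higher by 0.66 (adjusted p = 0.0136) in N2B27 and by 0.88 (adjusted p = 0.0045) in ESC medium. Its calls were lost without control replicate 2 in N2B27 (0.0538) and after quantile normalization in ESC medium (0.0786). No other partner of the 19 was called between genotypes. Lin28a stands in both this list and that of the pluripotency markers.

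The methyl donor supply was read next. Of 9 genes of the methionine and folate cycles measured, of 13 listed, 5 were lower and 2 higher in N2B27 in each genotype, with medians of -0.43 in Bmpr1a-/- and -0.56 in control cells. Shmt2, the mitochondrial serine hydroxymethyltransferase gene, differed by -1.61 in Bmpr1a-/- and -1.24 in control cells. Its cytosolic counterpart Shmt1 differed by -0.59 and -0.92, and was not called in Bmpr1a-/- cells without replicate 2 in ESC medium (0.068). Ahcyl1, a relative of the gene for adenosylhomocysteine hydrolase, rose by 0.55 and 0.81, and its call in Bmpr1a-/- cells was also lost without that array (0.0624). Between genotypes, Mtr, the methionine synthase gene, was lower in Bmpr1a-/- cells in N2B27, at -0.51 (adjusted p = 0.0188). That call was lost without control replicate 2 (0.0706) or 3 (0.0806) and with only the 2 groups in the fit (0.0864).

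The Tet enzymes use 2-oxoglutarate, which isocitrate dehydrogenases make. The list read for this supply also holds Ogt, described below, which is not part of it. Of the 7 listed genes measured, 2 were higher in N2B27 in Bmpr1a-/- and 3 in control cells, where 14.9% and 12.8% of all genes were. None was lower, where 10.3% and 13.3% of all genes were. Idh1 rose by 0.89 (adjusted p = 0.000577) in Bmpr1a-/- and by 0.58 (adjusted p = 0.00333) in control cells. Idh1 was also higher in Bmpr1a-/- than in control cells in N2B27, by 0.56 (adjusted p = 0.0187), not called without control replicate 3 (0.0547) or with only the 2 groups in the fit (0.0597). Ogt, a sugar transferase gene on chromosome X whose product binds Tet proteins, was the other of 2 called higher there (0.39), a call lost without control replicate 3 in N2B27 (0.125) and after median centring (0.0517), among others. Idh2 was higher in Bmpr1a-/- cells in ESC medium by 0.51 (adjusted p = 0.0108), not called without Bmpr1a-/- replicate 3 (0.11).

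Readers and repair partners were read in the same way. Of 7 methyl-CpG readers, 1 was lower in N2B27 in Bmpr1a-/- and 3 in control cells, and Zbtb38 was among them at -0.47 and -0.67. Of all genes, 10.3% were lower in Bmpr1a-/- and 13.3% in control cells. In Bmpr1a-/- cells that call was lost without replicate 3 in ESC medium (0.063). Of 13 base excision and deamination partners, 3 were higher and 3 lower in N2B27 in Bmpr1a-/- cells, and 2 were higher and 4 lower in control cells, which in either direction is 6 of 13 in each genotype beside 25.2% and 26.1% of all genes. Neil3, a glycosylase gene on chromosome 8, rose by 0.64 and 1.49, and Gadd45a, a stress gene linked to demethylation, differed by -0.97 and -1.19. In Bmpr1a-/- cells both calls were lost without replicate 2 in ESC medium (0.0897 and 0.091). Between genotypes none of the 7 readers was called in N2B27. In ESC medium 2 of 7 were lower in Bmpr1a-/- cells, Mbd4 at -0.40 and Mbd1 at -0.26, where 3.05% of all genes were. Of the 13 repair partners, 1 was called higher in Bmpr1a-/- cells in N2B27, where 4.1% of all genes were, and none in ESC medium. It was Polb (0.39), the DNA polymerase gene of base excision, on chromosome 8. Each of these 3 calls was lost with only the 2 groups in the fit (0.0779 for Mbd4, 0.0949 for Mbd1 and 0.0882 for Polb) and without single arrays, among them Bmpr1a-/- replicate 2 in ESC medium for Mbd4 (0.189) and Mbd1 (0.285) and control replicate 3 in N2B27 for Polb (0.116). Without the genes of chromosomes 8, X and Y, the genotype calls in N2B27 over all genes numbered 610 in place of 1144.

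The last list holds germline genes whose promoters are known to be silenced by DNA methylation. DNA methylation itself was not measured, and its part in the values of these genes was not tested. Of 14 measured, 7 were lower and 1 higher in N2B27 in Bmpr1a-/- cells, and 9 lower and 1 higher in control cells, with medians of -0.58 and -0.61. Rpl10l, a testis ribosomal protein gene, differed by -2.58 in Bmpr1a-/- and -2.54 in control cells, and Hormad1, of meiotic chromosome axes, by -2.26 and -1.27. Between genotypes in ESC medium 6 were higher in Bmpr1a-/- cells and none lower, where 3.09% of all genes were higher and 3.05% lower, with a median of 0.11 beside -0.01 over all genes. The list was chosen with higher germline genes in these cells already known, so its count is not independent evidence of that direction. Sycp1, of the synaptonemal complex, was higher by 1.40 (adjusted p = 0.000159), Rpl10l by 1.36 (adjusted p = 0.00258), not called after quantile normalization (0.0754), and Hormad1 by 1.33 (adjusted p = 0.0048), not called without Bmpr1a-/- replicate 2 (0.0705). In N2B27 Rpl10l alone was called, higher by 1.32 (adjusted p = 0.00251). Sycp3 went the other way there, at -1.28 with no overlap between genotypes, but was not called by limma (adjusted p = 0.0723). The median of the list in N2B27 was 0.16, beside -0.001 over all genes.

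**Figure D4:**
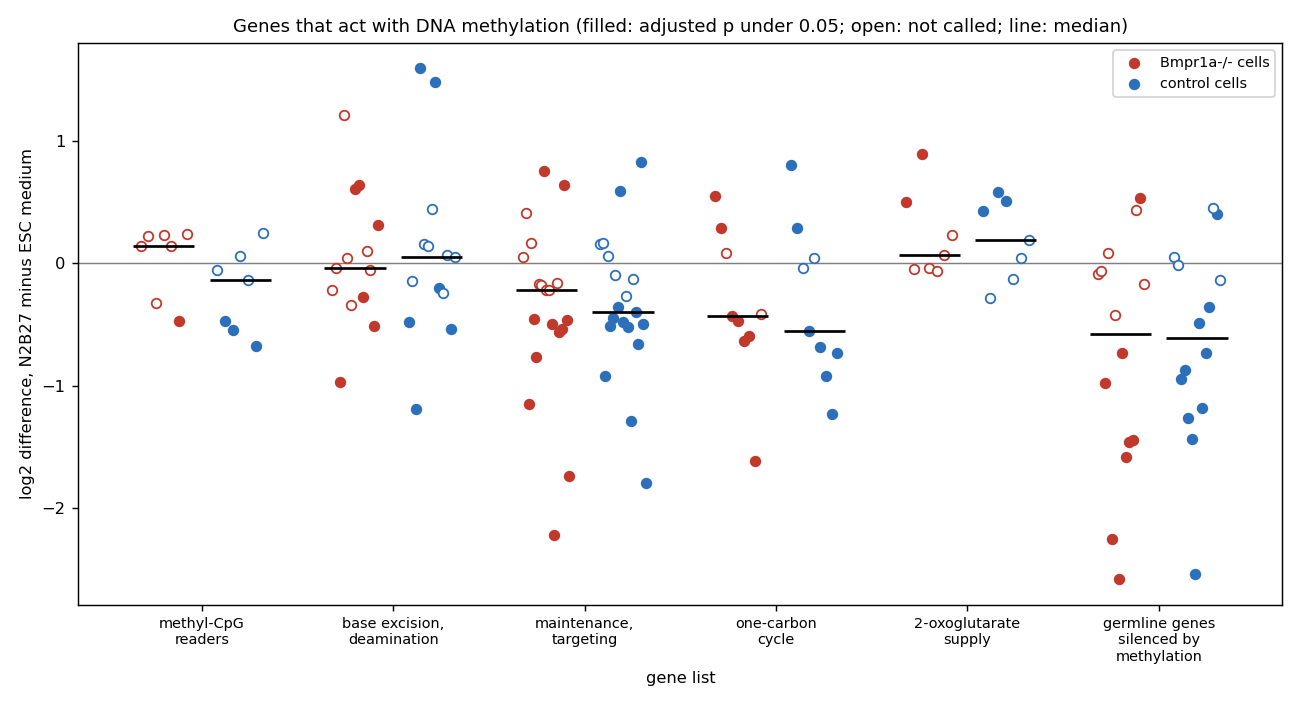
Log2 difference, N2B27 minus ESC medium, of each gene of the 6 lists in Bmpr1a-/- and control cells, with filled points called at an adjusted p under 0.05 and lines for list medians. The medians lie lowest for the germline list, at -0.58 in Bmpr1a-/- and -0.61 in control cells.

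Markers of cells that such cultures could hold were read beside these results. Between media, all 8 pluripotency markers were called in each genotype, 7 lower and 1 higher, with medians of -1.64 in Bmpr1a-/- and -1.26 in control cells. Of 7 neural progenitor markers 1 was higher in each genotype, and of 7 primitive and visceral endoderm markers 1 was higher in each. Of 9 fibroblast markers, 3 were higher and none lower in Bmpr1a-/- cells, and 3 were higher and 1 lower in control cells. Of 7 trophoblast markers, 3 were higher and 1 lower in Bmpr1a-/- and 2 lower in control cells, and of 6 mesoderm markers 2 were higher in Bmpr1a-/- and none in control cells. Between genotypes in ESC medium, 4 of 9 fibroblast and 2 of 7 trophoblast markers were called lower in Bmpr1a-/- cells, where 3.05% of all genes were. Of 8 pluripotency markers 1 was called higher, where 3.09% of all genes were. The fibroblast markers had a mean value per array of -0.63 to -0.56 in Bmpr1a-/- and 0.03 to 0.16 in control cells in ESC medium. Since brightness is lost in centred values, no marker can be called absent. In N2B27 the fibroblast markers averaged -0.04 to 0.35 per array in Bmpr1a-/- and 0.19 to 0.61 in control cells, and the trophoblast markers 0.08 to 0.25 in Bmpr1a-/- and -0.24 to -0.15 in control cells. The part of these markers in the results was not tested, and a smaller share of a cell type and less RNA per cell cannot be told apart.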

How the data were processed

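The authors deposited log2 expression values, 1 per array and transcript cluster (the feature for a gene or part of it), which the submitters' processing notes trace to RMA in Expression Console 1.2. The log base follows from RMA's usual output, and no genome build was named. Each of the 28815 clusters is centred on an unstated baseline, which removes brightness, so a filter on dim clusters and another background correction were not possible.

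Clusters with 1 symbol in the platform annotation (21780, against 1605 with several and 5430 with none) were kept, 21689 of them matched RefSeq's GRCm38.p6 gene table, and clusters of a gene were averaged. Means of the 4 groups over all 11 arrays were fitted with limma 3.58.1 (lmFit, eBayes) in R 4.3.3, with 7 residual degrees of freedom, two-sided tests and Benjamini-Hochberg adjustment over 19935 genes. The code was tested on simulated data. All 8 measured genes are described. From each list of partner genes, names were drawn from the 4 called genes with the largest difference per comparison. The called marker genes, and Uhrf2 in Bmpr1a-/- cells, were named after their values were seen. The genes and lists were chosen with earlier results of these data known, among them the higher germline genes in mutant cells. The number of arrays limits the precision.

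Groups share sample numbers, and pairing was judged by whether same-numbered arrays deviated together from their group means. Correlations between mutant and control in N2B27 were 0.256, 0.430 and 0.158, and between media in control cells 0.138, 0.181 and 0.131. All 3 were over 0.1 in each case, a sign of pairing in the values that no label states. Arrays of unlike numbers were not compared in this way. The main fit holds no pairing, and the replicate block among the alternatives does. With 2 shared numbers, between genotypes in ESC medium (0.0365 and 0.284) and between media in mutant cells (0.215 and 0.266), no pairing was assumed. Alternatives were median centring, quantile normalization, array weights, the compared groups alone, a replicate block, each cluster on its own, leaving out each array and, chosen after seeing the data, leaving out chromosomes 8, X and Y. Quantile normalization acted on RMA values already centred per gene, so calls that it alone makes or removes need caution.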

Additional observations from a re-analysis of the deposited data

Results flagged for a closer look

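Sycp1 is given because its genotype difference depended on the medium by a test of that difference. It stands among list genes named for large differences between groups, and those differences enter this test. The flag is therefore not independent of how the gene was chosen. The interaction was -1.09 (SE 0.15, limma, adjusted p = 0.00843), from a difference, Bmpr1a-/- minus control, of 0.30 in N2B27 and 1.40 in ESC medium. The call was lost after quantile normalization (-0.66, adjusted p = 0.0771) and without Bmpr1a-/- replicate 2 in ESC medium (-1.01, adjusted p = 0.0597). None of the 8 measured DNA methylation genes had a called interaction.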

How the results depend on the processing

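The 5 medium calls in each genotype and the Dnmt3l call between genotypes kept their direction under all alternatives; exceptions in the calls are Dnmt3b in control cells and Tet3 in Bmpr1a-/- cells, given above. Of the 8 genes, the number called between genotypes in ESC medium, 0, became 1 after quantile normalization (Tet2), with array weights (Dnmt3b) and with a replicate block (Dnmt3b, -0.47, adjusted p = 0.043), and was 0 to 1 without 1 array. In N2B27 it was 1, 2 after quantile normalization and 1 to 2 without 1 array. The interaction, 0, became 2 after quantile normalization. The replicate block changed no other call of the 8 genes.

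Over all genes, 1224 calls between genotypes in ESC medium became 491 (quantile), 3138 (weights), 766 (without chromosomes 8, X and Y) and 304 to 1707 without 1 array, fewest without Bmpr1a-/- replicate 2 in ESC medium. The 1144 in N2B27 became 2882 (weights), 610 (without those chromosomes), 397 (compared groups alone) and 454 to 1251 without 1 array. The 5018 between media in Bmpr1a-/- cells became 7689 (weights) and 2720 to 5956 without 1 array. The 422 interaction calls became 172 (quantile), 1782 (weights), 657 (replicate block) and 59 to 633 without 1 array.

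Directions turned only for values near 0 and, after quantile normalization, for ESC medium genotype differences: Dnmt3l -0.026, Tet1 -0.37, Tet2 -0.75 and Tet3 0.13. That of Tet3 was 0.055 on 1 of its 2 clusters. Without 1 array these ran from -0.032 to 0.35 for Tet1 and -0.12 to 0.015 for Tet3. In N2B27 the ranges were -0.10 to 0.034 for Dnmt3b, -0.16 to 0.10 for Uhrf1 (0.00169 with weights) and -0.13 to 0.013 for Tet3. Interactions ran from -0.19 to 0.020 for Dnmt1, -0.16 to 0.16 for Tet2 (-0.052 with weights) and -0.082 to 0.068 for Tet3 (0.000673 with the replicate block, 0.051 on its other cluster). The causes were not tested.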
